A study of Mus musculus with 4 samples.

Results

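The 9 keratins described here are the intermediate filament genes of interfollicular epidermis: Krt5, Krt14 and Krt15 of the basal layer, and Krt1, Krt10, Krt2, Krt77, Krt78 and Krt80 of the layers above it. They were taken by gene symbol, as every probe set that the platform annotation gives to 1 of these genes alone, which gave 11 of the 45037 probe sets that were not controls. Krt14 had 3 probe sets and each of the other 8 genes had 1. The samples were dorsal skin of 2 bitransgenic mice that overexpressed deltaNp63alpha and of 2 wild type mice, all at postnatal day 16, with 1 array per animal (n = 2 per group throughout). DeltaNp63alpha, the main form of the transcription factor p63 in basal keratinocytes, is made from an internal promoter and lacks the first transactivation domain. The labels do not name the second transgene, the promoter that drives deltaNp63alpha, the strain or any inducing treatment. Whole skin was measured, so fewer keratinocytes of a kind and less keratin RNA per cell cannot be told apart.

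Keratin filaments are built from pairs of 1 type I and 1 type II keratin. Basal keratinocytes pair the type II Krt5 with the type I Krt14, and some of them, together with cells of the follicle bulge, also hold the type I Krt15. Cells that leave the basal layer switch to the type II Krt1 and the type I Krt10, and p63 is a known activator of the Krt5 and Krt14 genes. Krt77 is a type II keratin closely related to Krt1, Krt2 is a type II keratin of the upper epidermis, and Krt78 and Krt80 are type II keratins of differentiating epithelium.

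Signals are intensities on a linear scale. Array medians lay between 97.9 and 101.4 in bitransgenic skin and between 99.1 and 113.1 in wild type skin. With 2 arrays a genotype, their number sets the precision. Over 27022 probe sets past a filter on dim signals, arrays of the same genotype correlated at 0.949 (bitransgenic) and 0.918 (wild type). Bitransgenic replicate 2 and wild type replicate 2 correlated at 0.920, so 1 pair across genotypes was as close as the wild type arrays were to each other. The transgene's gene was checked first. Of 4 Trp63 probe sets, 1451876_a_at read 10325 and 15247 in bitransgenic arrays against 205.7 and 837.8 in wild type arrays, and 1452027_a_at read 4644 and 9920 against 161.3 and 473.4. These groups did not overlap (limma adjusted p = 0.0613 and 0.0591 over all probe sets), while those of the other 2 Trp63 probe sets did. Bacillus spike-in signals averaged 1914 and 1866 in replicate 1 of bitransgenic and wild type skin, and 558 and 399 in replicate 2, so they differed more between replicate numbers than between genotypes. The Gapdh ratio of 3′ to 5′ signal, which rises as RNA breaks down, was 0.94 and 0.93 in bitransgenic arrays and 1.55 and 1.02 in wild type arrays, highest in wild type replicate 1. Its part in the results was not tested.

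Differences are given as log2(signal + 16), bitransgenic minus wild type, from a limma fit of all genes tested, each gene standing for its brightest probe set. Brightest means the highest mean of log2(signal + 16) over the 4 arrays. Of 13070 genes, 2.33% passed an adjusted p of 0.05, 0.750% higher and 1.58% lower. Of the 9 keratins, 8 passed the filter on dim signals and were tested, and 1 of the 8, Krt15, passed, being lower in bitransgenic skin. At an unadjusted p under 0.05 there were 5 of the 8, 1 higher and 4 lower, against 16.7% of all genes (6.91% higher and 9.76% lower). The same 5 keratins had groups that did not overlap, as 48.8% of all genes did (23.9% higher and 24.9% lower). The median difference of the 8 was -0.48, against 0.0053 over all genes tested. When each probe set was tested by itself over all 45037, limma called 0 of the 11 (0.173% of all probe sets), with 5 of the 11 at an unadjusted p under 0.05 (9.97% of all probe sets).

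**Figure D1:**
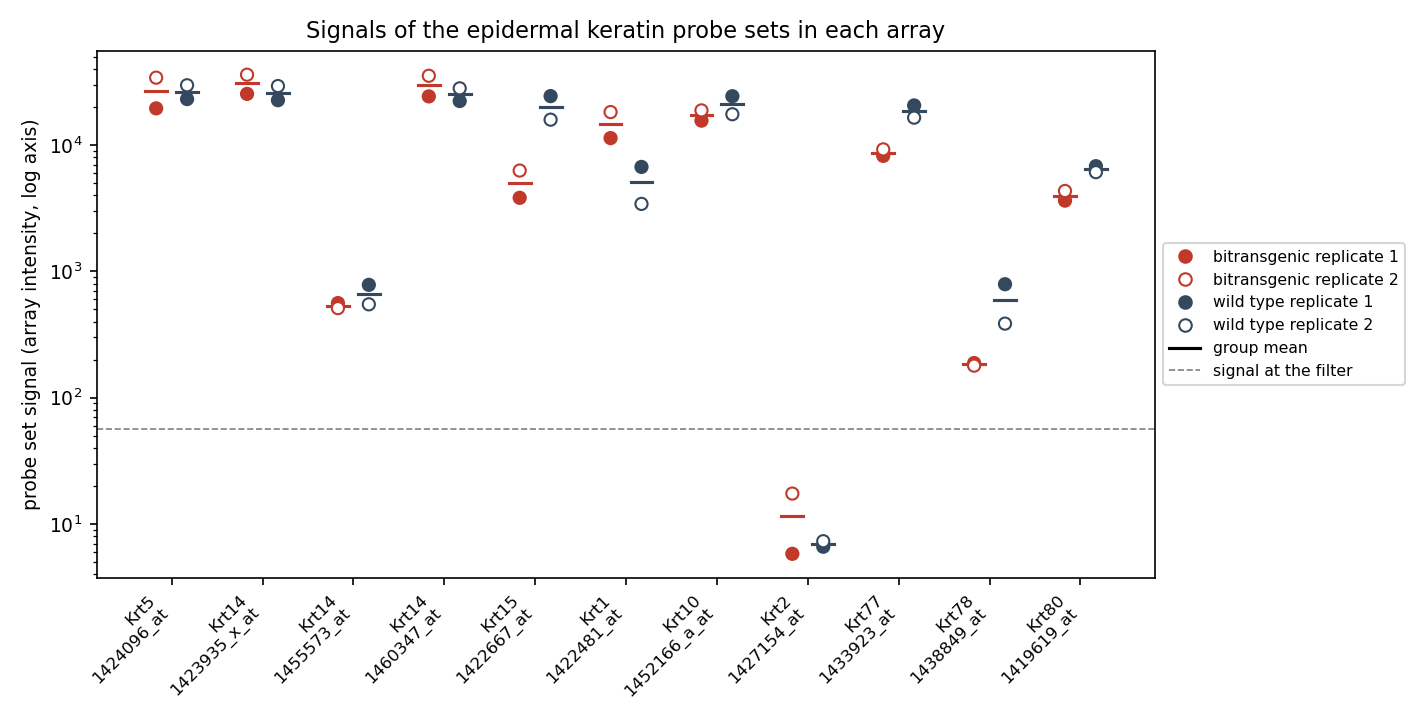
Signal of each of the 11 probe sets (array intensity, log axis) in the 2 bitransgenic arrays, left, and the 2 wild type arrays, right, with group means as bars. Krt5, Krt14 and Krt10 overlap between genotypes, Krt15, Krt77, Krt78 and Krt80 lie lower and Krt1 higher in bitransgenic skin, and Krt2 lies below the filter's signal of 57.0.

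Among the basal keratins, Krt15 fell 4.01-fold in bitransgenic skin, whereas the Krt5 and Krt14 signals of the 2 genotypes overlapped. Krt5, the basal type II keratin (1424096_at), read 19571 and 34271 in bitransgenic skin and 23199 and 29838 in wild type skin. The bitransgenic arrays lay on either side of both wild type arrays. The difference was -0.023 ± 0.34 (SE; limma adjusted p = 0.985), with a 95% interval of -0.83 to 0.79. Changes of the measured signal of more than 1.73-fold upward or below 0.562 of the wild type signal lie outside it. The highest signals of any probe set were 33303 and 53465 in bitransgenic arrays and 37622 and 47244.5 in wild type arrays. Whether signals as bright as those of Krt5 follow the amount of RNA in proportion was not tested. The sign of the Krt5 difference turned to 0.067 when array medians were made equal, and without wild type replicate 2 (0.16) or bitransgenic replicate 1 (0.38).

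Krt14, the type I partner of Krt5, was read by 3 probe sets. The brightest, 1423935_x_at, read 25491 and 36168 in bitransgenic skin against 22719 and 29412 in wild type skin, and the groups overlapped. Its difference was 0.23 ± 0.29 (SE; limma adjusted p = 0.754; 95% interval -0.46 to 0.93), with a sign that turned without bitransgenic replicate 2 (-0.020). Probe set 1460347_at, nearly as bright, read 24351 and 35471 against 22381 and 28202. The dim probe set 1455573_at read 561.5 and 512.3 in bitransgenic skin against 783.1 and 549.1 in wild type skin, a difference of -0.28 ± 0.30 (SE). The 3 probe sets thus did not share a sign, and for each of them the groups overlapped. A probe set with the suffix _x_at, such as 1423935_x_at, can also read close relatives of its gene.

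Krt15, the type I keratin that also marks stem cells of the hair follicle bulge (1422667_at), read 3830 and 6297 in bitransgenic skin and 24482 and 15926 in wild type skin. Both bitransgenic arrays lay below both wild type arrays. The means were 5063 ± 1744 and 20204 ± 6050 (SD), and the difference was -2.0 ± 0.34 (SE; limma adjusted p = 0.0424; 95% interval -2.83 to -1.18). It was -2.67 between the arrays of replicate number 1 and -1.34 between those of replicate number 2. Over 14 alternative settings the adjusted p ran from 0.0115 to 0.172, and the call was lost without bitransgenic replicate 1 (-1.65, adjusted p = 0.172) or wild type replicate 1 (-1.69, adjusted p = 0.0515), and in 3 other settings.

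Within the same array, the difference between Krt15 and its basal neighbour Krt14 is nearly free of a single scaling factor per array. Scaling that depends on signal can still move it. Under quantile normalization the Krt15 difference between genotypes was -2.05 and that of Krt14 0.31. Log2 Krt15 minus log2 Krt14 was -2.73 and -2.52 in bitransgenic arrays and 0.11 and -0.88 in wild type arrays. The change was -2.24, with no overlap between genotypes. For Krt5 minus Krt14 the values were -0.38 and -0.078 in bitransgenic arrays against 0.030 and 0.021 in wild type arrays. The genotypes did not overlap here either, but the change of -0.25 turned to 0.26 with the dim Krt14 probe set. Each of the 5 pairs tested gave an exact two-sided permutation p of 0.333, also after Benjamini-Hochberg adjustment over the 5, which is the smallest p that 2 against 2 arrays allow.

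Of the 6 suprabasal keratins, 5 were tested and 0 passed in limma at the adjusted threshold. At an unadjusted p under 0.05, 1 was higher and 3 were lower (6.91% and 9.76% of all genes tested). The 5 did not share a direction: Krt1 signals were higher in both bitransgenic arrays, Krt10 signals overlapped, and those of Krt77, Krt78 and Krt80 were lower in both. The median difference of the 5 was -0.70. Krt1, the type II keratin of spinous cells (1422481_at), read 11382 and 18291 in bitransgenic skin and 6727 and 3428 in wild type skin. Both bitransgenic arrays lay above both wild type arrays. The means of 14837 ± 4885 and 5078 ± 2333 (SD) gave a log2 difference of 1.58 ± 0.40 (SE; limma adjusted p = 0.111; 95% interval 0.63 to 2.54). It was 0.76 between arrays of replicate number 1 and 2.41 between those of replicate number 2, and it passed without wild type replicate 1 (2.07, adjusted p = 0.0236; 0.0236 to 0.361 over 14 settings).

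Krt10, the type I partner of Krt1 (1452166_a_at), read 15652 and 18865 in bitransgenic skin against 24425 and 17586 in wild type skin. The groups overlapped, and the difference was -0.27 ± 0.27 (SE; limma adjusted p = 0.688; 95% interval -0.92 to 0.38). Log2 Krt1 minus log2 Krt10 was -0.46 and -0.045 in bitransgenic arrays and -1.86 and -2.35 in wild type arrays, a change of 1.85, or 3.61-fold, with no overlap between genotypes (exact p = 0.333, the smallest possible).

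Krt77 (1433923_at), which can also pair with type I keratins of the suprabasal layers, read 8233 and 9265 in bitransgenic skin and 20655 and 16526 in wild type skin. Every bitransgenic signal lay below every wild type signal. The means of 8749 ± 729 and 18591 ± 2919 (SD) gave a difference of -1.08 ± 0.24 (SE; limma adjusted p = 0.0864; 95% interval -1.66 to -0.49), which missed the threshold. Log2 Krt77 minus log2 Krt10 was -0.93 and -1.02 in bitransgenic arrays against -0.24 and -0.090 in wild type arrays, a change of -0.81 with no overlap (exact p = 0.333).

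Krt78 (1438849_at) had the dimmest signals of the 8 keratins tested, with 188.1 and 179.4 in bitransgenic skin and 792.2 and 386.1 in wild type skin. The bitransgenic arrays were close to each other, while the wild type arrays differed by 1.01 on the log2 scale. The difference was -1.51 ± 0.41 (SE; limma adjusted p = 0.128; 95% interval -2.49 to -0.53), and without wild type replicate 2 it passed (-2.02, adjusted p = 0.0179). Krt80 (1419619_at), a keratin with wide expression in differentiating epithelia, read 3640 and 4338 in bitransgenic skin and 6818 and 6115 in wild type skin. These groups did not overlap either, and the difference was -0.70 ± 0.23 (SE; limma adjusted p = 0.200).

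Krt2 (1427154_at) did not pass the filter and so had no value in the test of genes. It read 5.8 and 17.4 in bitransgenic skin and 6.6 and 7.3 in wild type skin, all below the filter's signal of 57.0. Its difference among all probe sets was 0.23 ± 0.34 (SE; limma adjusted p = 0.884), and at such signals neither a change nor its absence could be detected. The within-array change of Krt2 against Krt10 (0.50) rests on the same dim signals.

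Krt1 and Krt77 are neighbours among the keratin genes of mouse chromosome 15 in RefSeq, and both are type II keratins of suprabasal cells. This pair was added after its values were seen. Log2 Krt1 minus log2 Krt77 was 0.47 and 0.98 in bitransgenic arrays and -1.62 and -2.26 in wild type arrays, a 6.33-fold change of the ratio (2.66 on the log2 scale; exact p = 0.333). Further along the same cluster, the keratin Krt79 of the follicle infundibulum had a difference of 1.24 (limma adjusted p = 0.0837) beside -1.51 for its neighbour Krt78.

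**Figure D2:**
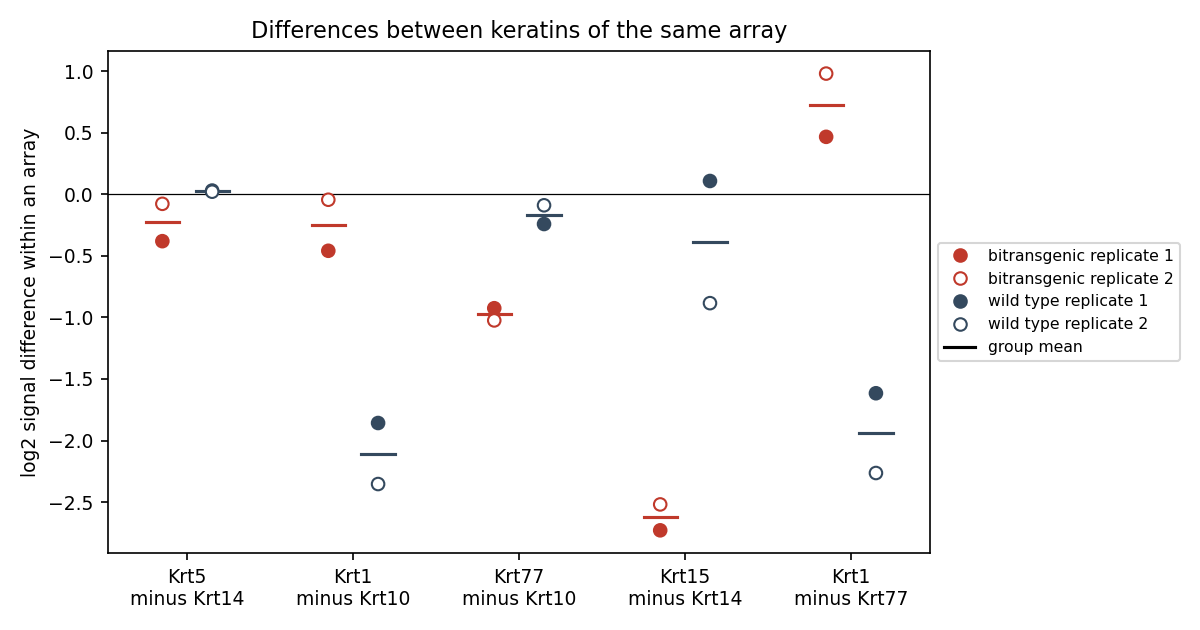
Log2 signal difference between 2 keratins of the same array, for 4 of the pairs tested and Krt1 minus Krt77, with the 2 bitransgenic arrays left of the 2 wild type arrays and bars at group means. Krt1 minus Krt10 and Krt1 minus Krt77 are higher in both bitransgenic arrays, and Krt77 minus Krt10 and Krt15 minus Krt14 are lower in both. Krt5 minus Krt14 is also lower in both, by a smaller amount.

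The bases before the transcription start of 4 of these genes are shown, because Krt5 and Krt10 overlapped between genotypes while Krt77 and Krt78 were lower in both bitransgenic arrays. The sequences are those of RefSeq on build GRCm38.p6, which held a window for 6 of the 9 keratins (Krt5, Krt14, Krt10, Krt2, Krt77 and Krt78). Each runs 5′ to 3′ over 250 bases up to the start, all 4 on the minus strand, and capitals mark TATA-type runs.
Krt5, chr15:101712906-101713155: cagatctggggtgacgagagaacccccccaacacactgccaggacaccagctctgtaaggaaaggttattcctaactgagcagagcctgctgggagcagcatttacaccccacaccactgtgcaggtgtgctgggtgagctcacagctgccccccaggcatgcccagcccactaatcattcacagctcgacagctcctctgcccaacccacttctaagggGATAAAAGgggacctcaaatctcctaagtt
Krt10, chr11:99389365-99389614: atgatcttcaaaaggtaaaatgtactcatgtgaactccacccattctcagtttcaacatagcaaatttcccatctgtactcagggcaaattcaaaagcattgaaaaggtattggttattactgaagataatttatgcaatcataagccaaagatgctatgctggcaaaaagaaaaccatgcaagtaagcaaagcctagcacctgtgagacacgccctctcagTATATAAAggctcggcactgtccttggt
Krt77, chr15:101869706-101869955: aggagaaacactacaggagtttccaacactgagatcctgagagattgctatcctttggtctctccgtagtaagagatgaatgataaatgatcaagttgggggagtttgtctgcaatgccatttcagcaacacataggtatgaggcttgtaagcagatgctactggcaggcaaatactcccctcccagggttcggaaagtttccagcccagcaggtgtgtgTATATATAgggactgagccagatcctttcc
Krt78, chr15:101954288-101954537: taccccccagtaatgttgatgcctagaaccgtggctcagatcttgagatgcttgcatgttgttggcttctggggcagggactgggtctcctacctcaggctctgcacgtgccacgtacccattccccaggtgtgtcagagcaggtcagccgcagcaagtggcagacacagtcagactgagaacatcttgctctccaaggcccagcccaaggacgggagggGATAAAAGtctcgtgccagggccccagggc

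The runs searched on both strands were the TATA box TATAAA, its variant TATATA, which can overlap it, and a run that starts with a G, GATAAAAG. They were chosen after the sequences were seen. GATAAAAG began 30 bases before the start in both Krt5 and Krt78, and 0.779% of all 32851 RefSeq windows of this length held it. In Krt10 TATATA began 28 bases before the start and TATAAA 26, and in Krt77 TATATA began 30 and 28 bases before it. TATATA was present in 5.25% of all windows and TATAAA in 12.4%. Any of the 3 runs was present in 16.3% of all windows and in 5 of the 6 keratin windows. Since the runs were chosen with these windows in view, that choice favoured the 5 of 6. The shares given here for the 3 runs are therefore no test of enrichment in keratin windows. The keratin window without such a run was that of Krt14, whose groups also overlapped between genotypes and which is not shown. The AP-2 motif GCCNNNGGC (13.7% of all windows) and the AP-1 motif TGANTCA (6.75%) had no match in the 6 windows. The core of the p63 motif, a CNNG followed after 6 bases by another CNNG, which 63.5% of all windows hold, matched in 1 of the 6, that of Krt5, where it began 97 bases before the start. A match is a run of letters and was not tested as a binding site.

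The other keratins of the array give the scale of these differences. Of the 35 other keratin genes tested, 12 were lower and 1 was higher in bitransgenic skin in limma's fit. Over all genes tested the shares were 1.58% lower and 0.750% higher. The median difference of the 35 was -2.26, against -0.48 for the 8 epidermal keratins. The 12 were Krt26, Krt31, Krt32, Krt33a, Krt33b, Krt34, Krt36, Krt72, Krt81, Krt82, Krt83 and Krt86, keratins of the hair shaft and inner root sheath, with differences from -7.15 to -1.98. The Krt15 difference of -2.0 lies at the upper edge of this range, next to Krt36 (-1.98). The range is that of keratins called lower, so Krt15, also called lower, was likely to lie in or near it. The keratin that rose was Krt6b, a keratin of wounded epidermis, with 18588 and 17289 in bitransgenic skin against 116.8 and 1058 in wild type skin (5.57 ± 0.87, SE; adjusted p = 0.0332). Other keratins of wounded epidermis did not pass: Krt6a (0.44, limma adjusted p = 0.538), Krt16 (1.30, 0.366) and Krt17 (0.69, 0.410). The groups of Krt6a and Krt17 overlapped. The Krt6b difference was 4.06 with wild type replicate 1 left out and 7.08 with replicate 2 left out. The count of other keratins called higher was 0 when either bitransgenic array was left out and 2 without wild type replicate 1.

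**Figure D3:**
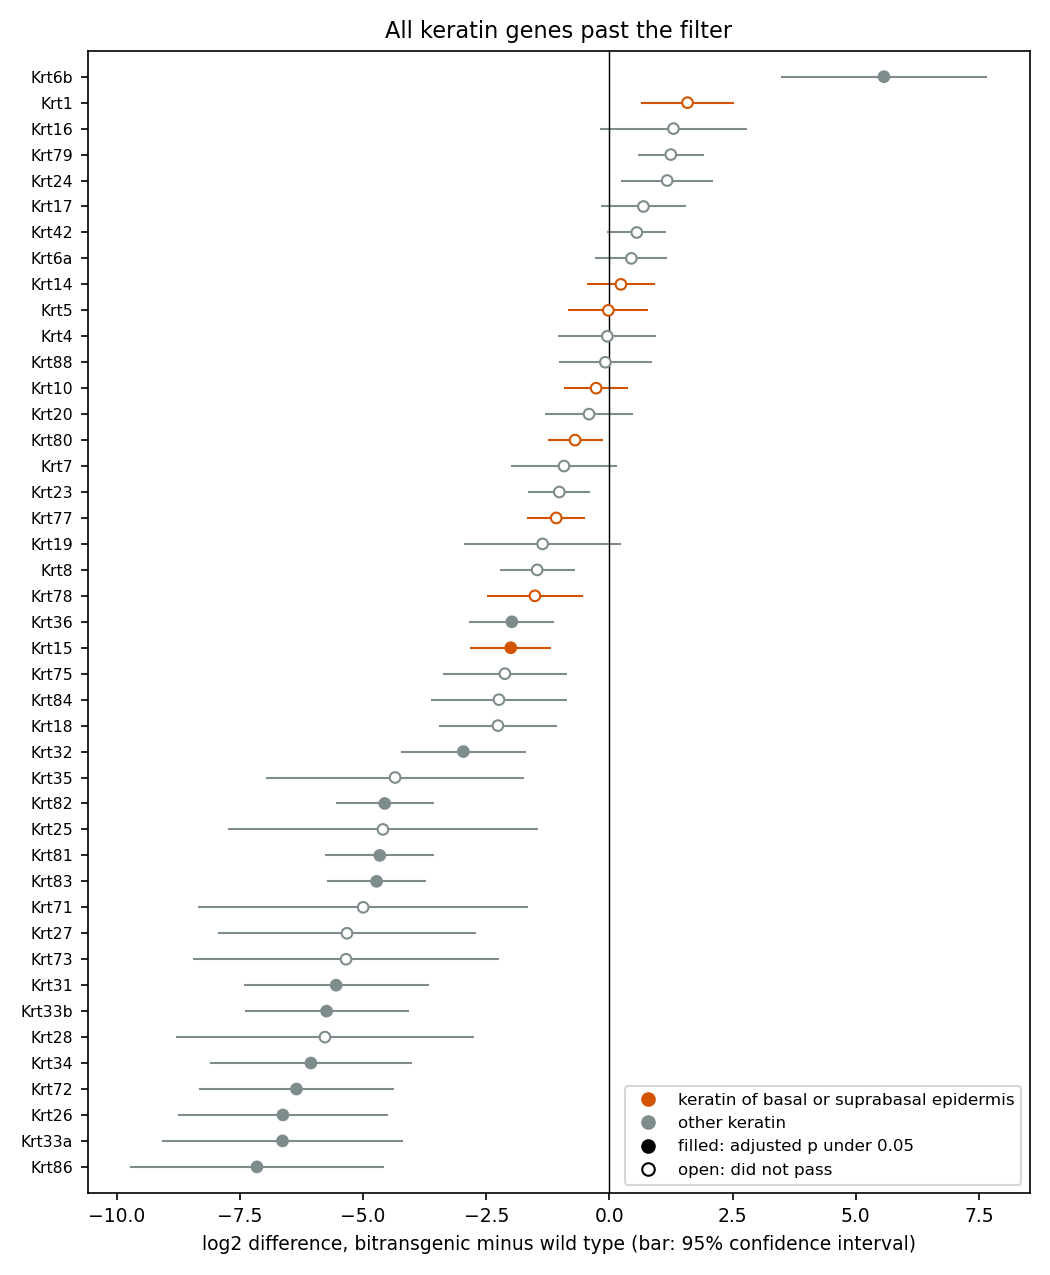
Log2 difference, bitransgenic minus wild type, of all 43 keratin genes past the filter, with 95% confidence intervals from limma. The 8 keratins of basal and suprabasal epidermis (orange) lie between -2.0 and 1.58, whereas the hair keratins reach -7.15 and Krt6b 5.57.

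Genes that work with these keratins were taken from lists of related genes. Of 9 basal adhesion genes tested, which hold basal cells to the basement membrane or to each other, 0 passed in limma and 0 reached an unadjusted p under 0.05, with a median difference of 0.087 that turned to -0.25 without bitransgenic replicate 2 and to -0.18 with the mean of each gene's probe sets. The smallest p values were those of the integrin genes Itgb4 (-0.86 ± 0.47, SE; adjusted p = 0.440) and Itga6 (0.49 ± 0.31; adjusted p = 0.509). Of 9 genes that anchor keratin filaments to desmosomes and other structures, 0 passed and 0 reached an unadjusted p under 0.05, with a median of -0.23. Tchp, a keratin filament-binding protein, had -0.72 ± 0.39 (SE; adjusted p = 0.424) and the plakin Evpl -0.32 ± 0.25 (adjusted p = 0.586).

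Of 14 suprabasal genes tested, 1 rose and 0 fell (0.750% and 1.58% of all genes tested), with a median of -0.098. At an unadjusted p under 0.05, 2 were higher and 5 lower (6.91% and 9.76% of all genes tested). The gene that rose was Flg, which codes for filaggrin, the protein that bundles keratin filaments in the cornifying cell. Its mean was 2834 ± 488 in bitransgenic skin and 631 ± 35.0 in wild type skin (SD), a 4.38-fold difference (2.13 ± 0.25, SE; limma adjusted p = 0.0156). The next smallest p was that of Serpinb12, a serpin of the upper epidermis, with -2.22 ± 0.41 (adjusted p = 0.0531). The Flg call was lost when bitransgenic replicate 1 (1.95, adjusted p = 0.115) or 2 (2.31, adjusted p = 0.0540) was left out. With wild type replicate 2 left out, 3 of the 14 passed as higher and 1 as lower, with a median of 0.087. With wild type replicate 1 left out, there were 1 higher and 2 lower, with a median of -0.24.

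Of 14 genes listed as regulators of epidermal keratins, 0 passed in limma, with a median of 0.27, or 0.012 without wild type replicate 1. At an unadjusted p under 0.05, 2 were higher and 2 lower (6.91% and 9.76% of all genes tested). The 14 include Trp63, the gene of the transgene. It stood in the test by its probe set with the highest mean log2 signal, 1418158_at (-0.037), and not by the 2 that differed widely. Of those 2, 1451876_a_at had higher signals than 1418158_at in bitransgenic arrays, but low ones in wild type arrays. With the mean of its probe sets Trp63 passed (2.25, adjusted p = 0.0177). Cebpa, a factor of keratinocyte differentiation, averaged 8236 ± 1317 in bitransgenic skin and 3657 ± 912 in wild type skin (SD), with a difference of 1.18 ± 0.28 (SE; adjusted p = 0.0942) that passed without wild type replicate 2 (1.44, adjusted p = 0.0323). Satb1, a chromatin organiser of keratinocytes, had -0.97 ± 0.34 (SE; adjusted p = 0.219). Of 8 genes listed for the follicle bulge, 0 passed in limma, with a median of -0.54. At an unadjusted p under 0.05, 4 of the 8 were lower (9.76% of all genes tested). The bulge list was split, with 5 negative and 3 positive differences. The positive ones were Lrig1 (0.30), Tcf7l1 (0.034) and Tcf7l2 (0.012), and Nfatc1 had -0.0070. Lgr5, a stem cell receptor, averaged 499 ± 96.7 in bitransgenic skin and 1365 ± 15.3 in wild type skin (SD; -1.43 ± 0.27, SE; adjusted p = 0.0574), and the homeobox gene Lhx2 had -1.46 ± 0.30 (adjusted p = 0.0709). When dim probe sets were kept, the bulge median was -0.0070. It was -0.28 with wild type replicate 1 left out and -0.96 with replicate 2 left out, where 3 of the 8 fell.

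**Figure D4:**
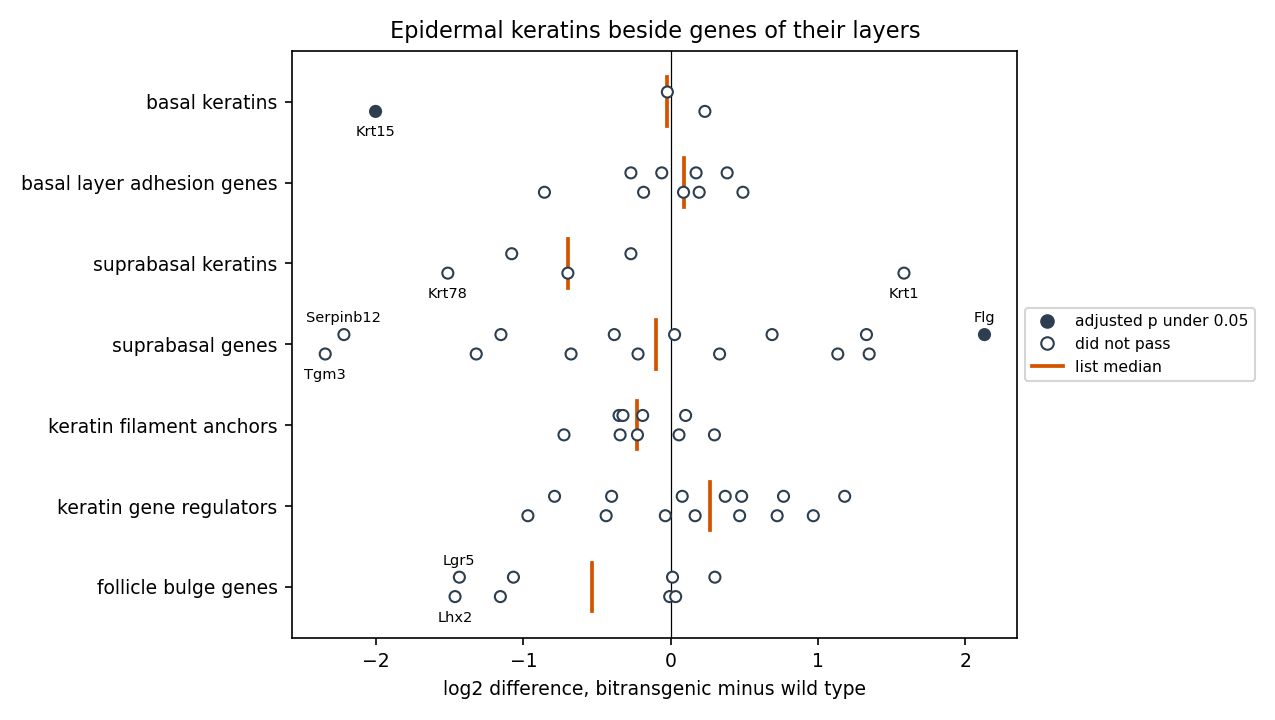
Log2 difference, bitransgenic minus wild type, of each tested gene of 7 lists, with list medians as orange bars and genes past an adjusted p of 0.05 filled. Krt15 and Flg are the filled points, at -2.0 and 2.13.

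Markers of hair follicle layers and of other cells of the skin were summed on each array. For the counts of markers called, 1.58% of all genes tested were lower and 0.750% higher at the adjusted threshold. The summed signal of 5 hair shaft markers was 477 and 3105 in bitransgenic arrays against 42307 and 76891 in wild type arrays, with 4 of the 5 lower in limma's fit. For 5 inner root sheath markers it was 916 and 16582 against 92018 and 150096, with 1 of 5 lower. For 5 skeletal muscle markers it was 11220 and 14170 against 131906 and 51941, with 4 of 5 lower. The 6 fibroblast markers summed to 59197 and 77343 against 130752 and 114607, and 3 fat cell markers to 21063 and 27460 against 45180 and 44792, with none called. The 5 melanocyte markers summed to 1878 and 2069 against 1923 and 15526, sums that overlapped, with none called. The 4 macrophage markers summed to 9779 and 13306 against 9278 and 5334, with none called. Sums of 4 endothelial markers (1609 and 2190 against 2057 and 1769), 4 T cell markers (2407 and 3289 against 3913 and 2409) and 3 sebocyte markers (57227 and 35700 against 42672 and 39965) overlapped. No marker was listed at 0 on any array. The part of these markers in the keratin values was not tested.

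For the 4 keratins beyond 1 on the log2 scale, the genes with the most similar profile over the 4 arrays were taken by Euclidean distance of values centred on each gene's mean. For Krt15 they were Mbp (distance 0.14), Shisa2 (0.22) and Igfbp6 (0.23). Their differences were -2.03 (limma adjusted p = 0.0581), -1.93 (0.0332) and -2.09 (0.0293), a direction set by the choice of profiles like that of Krt15. For Krt1 they were Napsa (0.26), Cd52 (0.28) and Clec4a2 (0.30). For Krt77 they were Tpcn1 (0.015), Itgbl1 (0.065) and Lpin2 (0.070), and for Krt78 they were Zfp354c (0.055), Cgref1 (0.087) and Vtn (0.12). With 4 arrays many genes share such profiles, and the distances are a description.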

How the data were processed

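The deposited values are probe set signals (intensity) on a linear scale from Affymetrix mouse arrays hybridised with biotinylated cRNA, 1 array per animal. Per the submitters' processing notes, MAS5 and the affy package were used, with no version or setting given in the sources used here. The mean of each array with 2% trimmed at either end was 500, so the authors had scaled the arrays to a common mean and a change in total RNA would not be seen. Signals have no detection calls.

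Of 45101 probe sets, 64 were controls. In the platform annotation 34945 of the rest had 1 gene symbol, 932 several and 9160 none, and only those with 1 were named. Signals were taken as log2(signal + 16), which pulls differences of dim genes toward 0. For genes, probe sets with a mean at or above the 40th percentile (6.19 on the log2 scale, a signal of 57.0) were kept. The brightest by this log2 mean stood for its gene. Bitransgenic was set against wild type with lmFit of limma 3.58.1 under R 4.3.3 (eBayes with an intensity trend, 2 residual and 4.45 prior degrees of freedom), with Benjamini-Hochberg adjustment over all 13070 genes, or over all 45037 probe sets with no filter. Within-array differences were compared by exact permutation with scipy 1.17.1. Alternatives varied the pseudocount, filter, probe set rule, scaling, trend and block, and left out each array. Named genes were all 9 keratins, every list gene past the threshold, the 2 of each list with the smallest p and the 3 nearest profiles. Other keratins and Trp63 were named in addition. The keratins and the lists were chosen with earlier results of these data known. Per the labels, arrays of one genotype are biological replicates.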

Additional observations from a re-analysis of the deposited data

Results flagged for a closer look

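A probe set outside the 11 is annotated to both Krt17 and Krt14 (1427841_at) and was therefore named for neither gene. It read 152.8 and 145.0 in bitransgenic skin and 118.3 and 98.1 in wild type skin, above the wild type level in both bitransgenic arrays, with a difference of 0.41 ± 0.40 (SE; limma adjusted p = 0.813). With 2 arrays per group no array could be tested for standing apart from its group.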

How the results depend on the processing

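The directions of the Krt15, Krt1, Krt10, Krt77, Krt78 and Krt80 differences held under all alternatives that gave a value. Krt15 missed the threshold with no filter on dim probe sets (-2.0, adjusted p = 0.0674), with the mean of the probe sets of a gene (-2.0, 0.0589) and without the intensity trend (-2.0, 0.0733), and without single arrays it ran from -2.36 to -1.65. Krt1 ran from 1.10 to 2.07 and Krt78 from -2.02 to -1.01 without single arrays. With equal array medians Krt5 turned to 0.067, and without single arrays it ran from -0.43 to 0.38, Krt14 from -0.020 to 0.48, its probe set 1460347_at from -0.045 to 0.50 and Krt2 from -0.074 to 0.54. Replicate numbers are shared by the genotypes in the labels. Deviations of same-numbered arrays correlated at 0.21 over 13070 genes, but with 2 pairs this does not show that the numbers pair animals. With replicate number as a block, Krt77 passed (-1.08, adjusted p = 0.0356), Krt15 stayed called (0.0249) and no other keratin of the 8 passed; 207 genes were called higher and 438 lower, against 98 and 206, and 2 suprabasal genes higher and 2 lower, 1 regulator higher, 1 bulge gene lower, and 2 other keratins higher and 21 lower. Without single arrays the counts of all genes ran from 22 to 314 higher and 96 to 635 lower, and with no filter they were 52 and 132. The count of suprabasal genes called ran from 0 to 3 higher and 0 to 2 lower without single arrays, was 2 higher under quantile normalization and 1 lower with equal medians. Regulators ran from 0 to 1 higher and bulge genes from 0 to 3 lower, and 1 regulator, Trp63 itself, was higher with the mean of probe sets. Other keratins called higher ran from 0 to 2 without single arrays, and were 0 with no filter or no trend and 2 under quantile normalization. List medians ran from -0.25 to 0.34 (basal adhesion), 0.012 to 0.33 (regulators) and -0.96 to -0.28 (bulge) without single arrays. The bulge median was -0.0070 with no filter, and that of other keratins -4.56 with the 60th percentile filter and -3.66 without suffixed probe sets, where the anchor median was -0.035. Krt5 minus Krt14 turned to 0.26 with the dim Krt14 probe set. The cause of these shifts was not tested beyond what each alternative changes. With 2 arrays a group, limma's 95% intervals for Krt5, Krt14 and Krt10 leave room for changes of either sign, and Krt2 lay too near background to be measured.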
